A study of Mus musculus with 2 samples.

Results

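The nuclear-encoded subunits of respiratory complex I were examined in total RNA of the embryonic mouse heart. The genes were found by name: each gene whose mouse symbol begins with Ndufa, Ndufb, Ndufc, Ndufs or Ndufv and ends in a number, plus Ndufab1 and Ndufa4l2, while assembly factors (Ndufaf) were kept apart. This gave 38 genes among 43346 gene rows with an Ensembl identifier, spread over 15 chromosomes, with 5 on chromosome 17, 4 each on chromosomes 1 and 6, and Ndufa1 and Ndufb11 on the X chromosome. Ndufb1 was also looked for and was not matched to a row, so it is not analysed here.

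The samples were 2 single hearts of B6NCrl embryos, a C57BL/6 substrain, at embryonic day 14.5, with no treatment or mutation named in the labels. They form 1 group, and the labels call them biological replicates 1 and 2, each from a pup collected on its own day. Each heart gave 1 library from 10 ng of RNA, and the total estimated counts were 2.85e+07 and 2.90e+07. The series therefore has no comparison of conditions, and no test is possible: a sign test over 2 libraries cannot give a p below 0.5. Collection day and embryo differ together and cannot be told apart.

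Complex I, or NADH:ubiquinone oxidoreductase, is the entry point of electrons from NADH into the respiratory chain. Its matrix arm oxidises NADH and hands the electrons along iron-sulphur clusters to ubiquinone, and its membrane arm pumps protons. The core subunits that do this chemistry are shared with bacteria and are split between the nuclear and the mitochondrial genome, whereas the accessory subunits, all nuclear, build and stabilise the complex around them. Heart muscle is rich in mitochondria, and these mature while the embryonic heart grows.

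The identity of the tissue and the labels were checked first. All 8 cardiomyocyte markers examined reached 1 TPM (transcripts per 1000000, an abundance corrected for transcript length) in both libraries, led by the cardiac actin gene Actc1 at 11908 ± 426 TPM (SD, n = 2), and none of 4 liver markers did. The 2 hearts differed in erythroid transcripts. Haemoglobin genes took 2.33% of gene counts in replicate 1 and 1.31% in replicate 2. Of 10 erythroid markers, 8 were lower in replicate 2 by more than 0.32 in log2. Sex is labelled as pooled, male and female, for each heart, but Xist was at 0.04 and 37.7 TPM in replicates 1 and 2, whereas the Y-linked genes Ddx3y and Eif2s3y had 2310 and 1845 counts in replicate 1 and 0 in replicate 2. Neither library held both kinds of transcript above trace counts. By these transcripts replicate 1 read as male and replicate 2 as female. Sex therefore also differs with embryo and collection day and cannot be told apart from them. In bulk tissue, fewer cells of a type and less RNA per cell cannot be told apart.

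Complex I subunit mRNAs were abundant in both hearts. Together the 38 genes took 0.948% of the gene counts of replicate 1 and 0.952% of those of replicate 2. Their Wilson 95% intervals, 0.945 to 0.952 and 0.948 to 0.955, cover counting error only. The median subunit stood at 499 and 524 TPM in replicates 1 and 2, which is 517 ± 18.1 TPM for the median of the means. Of the 38 genes, 36 reached at least 100 TPM in both libraries, and the same number were among the top 1000 gene rows in both, while 9.45% of the 13635 genes detected at 1 TPM or more in both reached 100 TPM. The central part of the set was narrow, with quartiles of 343 and 630 TPM and 30 of 38 genes within 2-fold of the median.

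**Figure D1:**
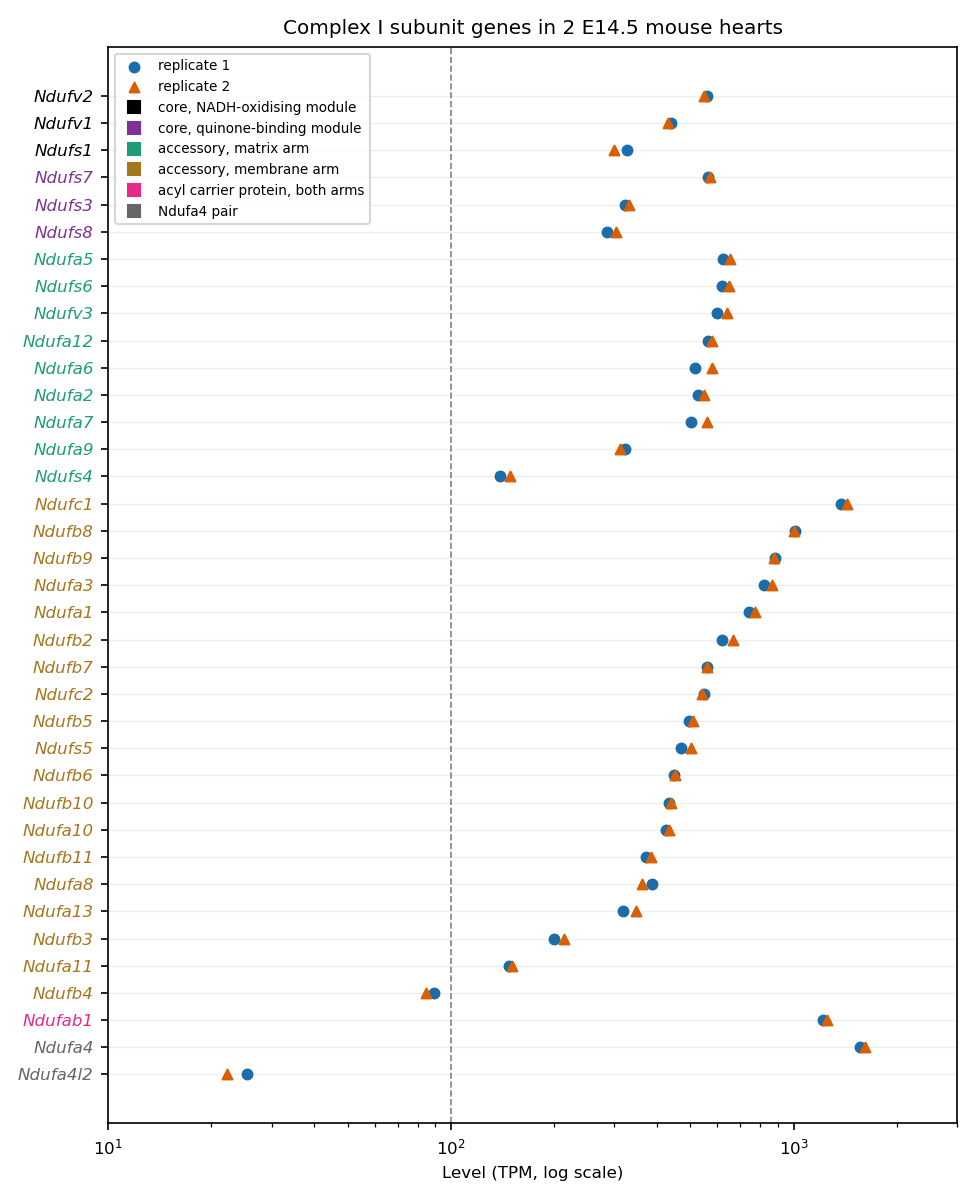
Level of 37 of the 38 complex I subunit genes in TPM (log axis) in replicate 1 (circles) and replicate 2 (triangles), grouped and coloured by role; the dashed line marks 100 TPM. The points of a gene lie close together, all but a pair lie right of the line in both libraries, and Ndufb4 and Ndufa4l2 lie left of it.

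The core subunits of the NADH-oxidising module sit at the tip of the matrix arm. Ndufv1, which carries the flavin and binds NADH, had 439 TPM in replicate 1 and 430 in replicate 2. Ndufv2, which holds an iron-sulphur cluster beside it, had 559 and 548 TPM. Ndufs1, the largest subunit of the complex and the carrier of several clusters, had 326 and 300 TPM. All 3 were lower in replicate 2 in TPM, and Ndufs1 lay below both others in each heart.

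The core subunits of the quinone-binding module join the arms. Ndufs7, which holds the last cluster before the quinone, had 564 and 571 TPM in replicates 1 and 2. Ndufs3, a scaffold of early assembly, had 322 and 331 TPM, and Ndufs8, which carries further clusters, had 286 and 304 TPM. Taken as 1 set, the 7 nuclear core genes spanned only 1.93-fold in mean level, from Ndufs8 at 295 ± 12.8 TPM to Ndufs7 at 567 ± 5.30 TPM. Their median was 439 and 430 TPM in the hearts.

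The 29 accessory genes, Ndufab1 included and the Ndufa4 pair left out, had a wider range. Their median was 516 and 548 TPM in replicates 1 and 2, 1.18-fold and 1.27-fold above the core median, and their means spanned 16.2-fold, from Ndufb4 to Ndufc1. The 9 accessory genes of the matrix arm had medians of 528 and 577 TPM, and the 19 of the membrane arm 471 and 504 TPM. Medians of these groups are descriptions of 2 libraries, and the ranges of single genes in the groups overlap. Across the 38 genes, TPM also went with transcript length (rho -0.77), and the groups were not compared at like length.

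In the matrix arm, the accessory genes spanned 4.41-fold in mean level. Ndufa5, a small subunit on the side of the arm, led them with 622 and 651 TPM, but only 47.1 ± 1.49 TPM of this (SD, n = 2) lay on transcript models typed as protein coding, the least of the arm on that measure. It was followed by the zinc-binding Ndufs6 with 618 and 650 TPM. Ndufv3, a small subunit of the NADH-oxidising tip, had 596 and 639 TPM. Ndufa12, a paralogue of the assembly factor Ndufaf2, had 562 and 579 TPM. These 4 were all slightly higher in replicate 2 in TPM. Ndufa2, with a thioredoxin-like fold, had 528 and 548 TPM, and Ndufa7 had 503 and 561 TPM. Ndufa6, an LYR-motif protein that docks the acyl carrier protein, had 516 and 577 TPM. Ndufa9, which binds NADPH beside the quinone site, was lower with 323 and 311 TPM. Ndufs4, whose loss in humans and mice causes Leigh-like encephalopathy, was the lowest of the arm with 139 and 149 TPM, 4.41-fold below Ndufa5 in mean level.

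In the membrane arm, Ndufc1 was the most abundant, with 1374 and 1432 TPM in replicates 1 and 2, of which 716 ± 5.06 TPM lay on coding models, below Ndufb8 at 947 ± 1.92 TPM. It was followed by Ndufb8 with 1009 and 1007 TPM and by Ndufb9, the LYR-motif subunit of this arm, which docks an acyl carrier protein, with 880 and 878 TPM. The small transmembrane subunits Ndufa3 (818 and 864 TPM) and Ndufa1 (740 and 771 TPM) came next. Ranges of these 5 genes did not overlap with each other in the 2 hearts, at the deposited transcript lengths. With the length that a later annotation (GENCODE M21) gives its leading transcript, Ndufa3 would stand at 522 ± 23.2 TPM and lie in the middle of the set. The subunits with disulphide-linked helical hairpins on the intermembrane-space side were in the middle of the set: Ndufb7 had 560 and 559 TPM, Ndufs5 471 and 504 TPM, Ndufb10 435 and 440 TPM and Ndufa8 386 and 361 TPM.

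The rest of the membrane arm reached from these middle levels down to the lowest. Ndufb2 had 620 and 666 TPM, Ndufc2 550 and 540 TPM, Ndufb5 494 and 508 TPM, and Ndufb6 447 and 452 TPM. Ndufa10, which has a nucleoside-kinase fold, had 425 and 434 TPM, with 73.3 ± 2.09 TPM on coding models. The X-linked Ndufb11 had 372 and 384 TPM, and Ndufa13, also known as GRIM-19, 318 and 347 TPM. Ndufb3 had 200 and 214 TPM, Ndufa11 148 and 151 TPM, and Ndufb4 89.1 and 84.6 TPM. The lowest of these lay far from the rest, and the values of Ndufa11 and Ndufb4 depend on the transcript models and copies described with their counts.

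Ndufab1, the mitochondrial acyl carrier protein, is part of both arms of complex I and also serves mitochondrial fatty acid synthesis and iron-sulphur cluster assembly outside it. It had rank 3 of the 38 genes, with 1220 and 1256 TPM in replicates 1 and 2, of which 579 ± 20.2 TPM (rank 9) lay on coding models.

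Ndufa4 and Ndufa4l2 carry complex I names, but the Ndufa4 protein is now assigned to cytochrome c oxidase (complex IV), and Ndufa4l2 is its paralogue, best known as a gene induced by hypoxia. Ndufa4 was the highest of the 38 genes, with 1561 and 1617 TPM, and Ndufa4l2 the lowest, with 25.4 and 22.2 TPM from 457 and 402 counts. Ndufa4 was 61.5-fold above Ndufa4l2 in replicate 1 and 72.8-fold in replicate 2, a log2 ratio of 6.07 ± 0.17 (SD, n = 2). Ndufa4 was 0.863-fold of Cox4i1, a complex IV subunit gene, in both libraries. With the pair left out, the set spanned 16.2-fold instead of 66.8-fold, and the median was the same.

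The order of levels was nearly the same in both hearts. Along the 37 pairs of neighbours in the order of mean TPM, the values of the 2 hearts overlapped in 21 pairs and did not in 16. The genes told apart from their neighbour in this way included the 7 at the top, in the order Ndufa4, Ndufc1, Ndufab1, Ndufb8, Ndufb9, Ndufa3 and Ndufa1, and at the bottom Ndufa4l2, Ndufb4 and Ndufb3, while Ndufs4 and Ndufa11 overlapped. In the middle, from Ndufs5 up to Ndufb7, each gene overlapped its neighbour. Ranks were equal in both hearts for 17 genes, and no gene moved by more than 5 places. Across the 38 genes, which share the 2 libraries, TPM in replicate 1 and in replicate 2 had a Spearman rho of 0.99.

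Promoter letters were read for the genes that RefSeq places on GRCm38.p6, in windows of 250 bases before to 50 bases after the annotated start. Of the 38 genes, 33 were matched, with 35 windows. Nuclear respiratory factor 1 (NRF1) and YY1 are transcription factors known for binding respiratory chain genes, and their core letters were searched on both strands as GCGCANGCG and AAGATGGC. The NRF1 letters were in 9 windows (25.7%), of Ndufa5, Ndufa6, Ndufa8, Ndufa11, Ndufb4, Ndufb10, Ndufs5 and Ndufs6. They were in 6.25% of all 32851 windows and in 16.2% of 1247 windows of genes at 100 TPM or more. The YY1 letters were in 7 windows (20%), against 2.75% and 6.09%. To show where the letters lie, the promoters of the 3 most abundant genes with NRF1 letters up to 120 bases before the start are printed, and those of the 2 most abundant with YY1 letters up to 30 bases after it. The latter were chosen after the matches were seen. Each runs from 120 bases before to 30 bases into the transcript, 5′ to 3′ on the gene's strand, and capitals mark the match on either strand.
Ndufa5 (chr6:24527661-24527810, minus strand): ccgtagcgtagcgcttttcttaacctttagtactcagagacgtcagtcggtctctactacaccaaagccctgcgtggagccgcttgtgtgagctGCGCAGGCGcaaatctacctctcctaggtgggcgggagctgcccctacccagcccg
Ndufs6 (chr13:73328453-73328602, minus strand): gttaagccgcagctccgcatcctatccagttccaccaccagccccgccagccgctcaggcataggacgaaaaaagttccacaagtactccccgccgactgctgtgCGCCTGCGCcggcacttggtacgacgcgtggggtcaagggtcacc
Ndufs5 (chr4:123718157-123718306, minus strand): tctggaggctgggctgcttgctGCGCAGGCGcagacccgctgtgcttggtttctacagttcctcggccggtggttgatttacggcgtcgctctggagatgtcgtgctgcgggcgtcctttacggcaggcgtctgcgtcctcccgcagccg
Ndufc1 (chr3:51408926-51409075, minus strand): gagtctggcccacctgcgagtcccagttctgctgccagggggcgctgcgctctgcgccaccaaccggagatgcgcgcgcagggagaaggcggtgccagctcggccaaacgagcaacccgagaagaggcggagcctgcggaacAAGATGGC
Ndufa3 (chr7:3617253-3617402, plus strand): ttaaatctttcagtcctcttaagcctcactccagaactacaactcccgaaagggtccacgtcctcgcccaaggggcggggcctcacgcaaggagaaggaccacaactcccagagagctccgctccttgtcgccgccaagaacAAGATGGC

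In Ndufa5, Ndufs6 and Ndufs5 the NRF1 letters began at -26, -15 and -98 relative to the start, and the Ndufs6 match reads on the opposite strand. In Ndufc1 and Ndufa3 the YY1 letters began 22 bases after the start, close behind it and on the coding strand. All 7 subunit windows with YY1 letters (Ndufa3, Ndufa9, Ndufb8, Ndufc1, Ndufs4, Ndufs6 and Ndufs7) had them on the coding strand 22 to 38 bases after the start. Strand and stretch were then chosen from these matches, so the subunit windows keep all of theirs: in the 50 bases after the start, on that strand, the same letters were in 0.865% of all windows and 2.25% of windows of genes at 100 TPM or more. The genes with these letters ranged in level from Ndufs4 near the bottom of the set to Ndufc1 near its top.

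Further letters were searched in the same windows. CCGGAAG, the ETS core also bound by GABP (nuclear respiratory factor 2), was in 4 windows (11.4%, of Ndufb6, Ndufb7, Ndufs3 and Ndufs8), against 8.86% of all windows and 20.05% of those at 100 TPM or more. CAAGGTCA, the oestrogen-related receptor site, was in 1 window (2.86%, of Ndufs5), against 1.56% and 1.20%. The TATA box letters TATAAA were in 5 windows (14.3%), against 13.6% and 9.94%. No subunit gene had both NRF1 and ETS letters, and 12 had either. The share of all windows with both or either was not computed. These 2 counts therefore have no background and are not a result about the subunits. A match is a run of letters in a window and was not tested for binding.

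The 2 hearts gave nearly the same levels for each subunit. The SD between them was under 5% of the mean TPM in 32 of 38 genes, with a median of 2.75%, a low of 0.188% in Ndufb7 and a high of 9.42% in Ndufa4l2. For differences between the hearts, counts were scaled by TMM (an edgeR method that corrects for depth and composition) and written as log2 of replicate 2 over replicate 1. The median over the 38 genes was -0.01, and that over the 11958 genes whose mean count reached 100 was -0.00. In size without sign, the medians were 0.04 and 0.10; from a mean count of 1000 upwards they were 0.04 for 37 subunit genes and 0.07 for 5717 genes. With no replicate test, a size of 0.32 on the log2 scale was taken as the fold threshold. No subunit gene was past it in either direction, where 8.65% of the 11958 genes were. Of the 5717 genes of higher count, 2.2% were past it.

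**Figure D2:**
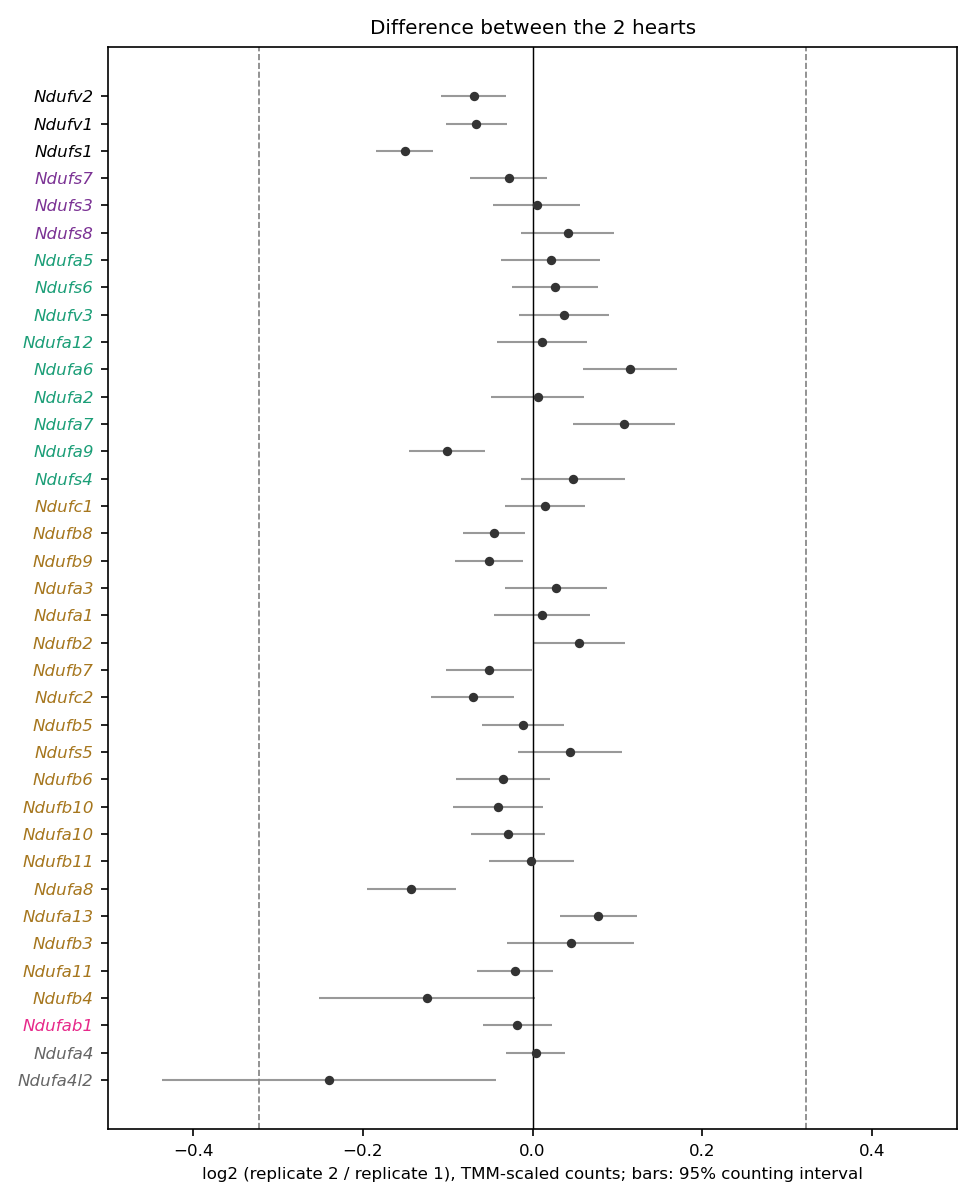
Log2 of replicate 2 over replicate 1 in TMM-scaled counts for 37 of the 38 genes, with bars for the exact 95% counting interval; dashed lines mark the fold threshold of 0.32, and gene names have the role colours of the plot of levels. All points lie between the dashed lines, from -0.24 for Ndufa4l2 to 0.11 for Ndufa6.

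Within this narrow range, the counting interval excluded 0 for 15 genes (39.5%), against 37.2% of the 11958 genes and 44.8% of the 5717 genes of higher count, so this share is near the background. Higher in replicate 2 were 4 of them, where 17.4% of the 11958 genes and 17.6% of the 5717 were: Ndufa6 (0.11), Ndufa7 (0.11), Ndufa13 (0.08) and Ndufb2 (0.05). Higher in replicate 1 were 11, where 19.8% of the 11958 genes and 27.2% of the 5717 were. Ndufa4l2 had the largest size of these (-0.24, interval -0.44 to -0.04), and they included Ndufs1 (-0.15), Ndufa8 (-0.14) and Ndufa9 (-0.10). Ndufc2, Ndufv2, Ndufv1, Ndufb7, Ndufb9 and Ndufb8 were among them with values between -0.07 and -0.05. These intervals cover counting error only, and 1 library per embryo cannot tell embryo from library. Of the 7 core genes, 4 had an interval below 0 and 0 had one above with TMM. With the spike-in total, 1 core gene lay below and 5 above. That scaling also put the median of all genes at 0.11, and 31 subunit genes, core included, lay above 0 and 1 below. The share of all genes with such an interval was not computed for the spike-in total. The core counts under it therefore have no background and are not a result about the core.

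Marker levels of other cell types are given beside these differences. The summed erythroid markers were at 61171 and 34791 TPM in replicates 1 and 2, and the summed neuronal markers were at 3.09 and 12.6 TPM, while the summed complex I subunits were at 20500 and 21071 TPM. Of 8 cardiomyocyte markers, Myl7 was higher in replicate 2 by 0.43 and the other 7 lay within the threshold. Only 2 of the 8 were higher in replicate 2, and the median of this list was -0.13. Of 6 fibroblast and mesenchyme markers, 5 were higher in replicate 2, with a median of 0.19, and the medians of the endothelial and macrophage markers were -0.10 and -0.12. Tie1 (0.34) and Csf1r (-0.39) were past the threshold in these last lists. The part of these markers in the small differences of the subunits was not tested. With TMM, the X-linked genes Ndufa1 (0.01, interval -0.05 to 0.07) and Ndufb11 (-0.00, interval -0.05 to 0.05) were among the most alike between the hearts. The hearts differed in Xist, and any relation of Xist to these levels was not tested. Small differences went with length: across the 38 genes the difference and the gene length had a rho of -0.43, with longer genes lower in replicate 2, and across the 5717 genes of high count it was -0.16. The points share the same 2 libraries, and no cause of the relation was tested.

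The scaling between libraries moved all genes together. With the spike-in total in place of TMM, the median of all genes was 0.11 and that of the subunits 0.11 as well, and 33 of 38 subunits were then higher in replicate 2, against 18 with TMM. A scaling factor shifts every gene by the same amount, so the direction of a single small difference depends on it and the distance between the subunits' median and that of all genes, -0.00, does not.

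The other genes of the respiratory chain were set beside the complex I subunits. The 7 mitochondrially encoded complex I genes had medians of 1104 and 1162 TPM in replicates 1 and 2, 2.21-fold and 2.22-fold above the nuclear ones, and ranged from mt-Nd4l at 137 ± 27.9 TPM to mt-Nd1 at 5402 ± 187 TPM. These genes encode the proton-pumping core of the membrane arm and are cut from long mitochondrial precursor transcripts. mt-Nd3 (-0.47) and mt-Nd4l (-0.46) were past the fold threshold, lower in replicate 2, unlike any nuclear subunit. The share of gene counts on the 7 genes was 0.901% and 0.882%, close to that of the 38 nuclear genes.

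The 18 complex I assembly factors examined, which build the complex and are not part of it, had medians of 43.4 and 42.8 TPM, and none reached 100 TPM in both libraries. The subunit median was 11.5-fold above theirs in replicate 1 and 12.3-fold in replicate 2. The highest, Ndufaf8, had 92.0 ± 1.63 TPM, and the lowest, the iron-sulphur carrier Nubpl, had 9.87 ± 0.43 TPM. Only Ndufb4 and Ndufa4l2 of the 38 subunits lay in the assembly factors' range.

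Among the other complexes, complex II (succinate dehydrogenase), which also delivers electrons to ubiquinone, was the nearest in level. Its 4 genes had medians of 533 and 526 TPM, 1.07-fold and 1.00-fold of the complex I median, from Sdha at 408 ± 30.3 TPM to Sdhb at 787 ± 4.60 TPM. The 9 nuclear genes of complex III had medians of 1030 and 1071 TPM, from Uqcrc2 (399 ± 4.99) to Uqcr10 (1732 ± 44.6). The 15 nuclear genes of complex IV had medians of 1116 and 1135 TPM, from Cox4i2 (14.5 ± 0.01) to Cox6b1 (2446 ± 51.9). The 16 nuclear genes of complex V, the ATP synthase, had medians of 1252 and 1279 TPM, from Atp5g2 (269 ± 25.2) to Atp5b (5088 ± 50.5).

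Pooled, the 40 nuclear genes of complexes III to V had medians of 1085 and 1105 TPM. Their log2 ratio over the complex I subunits was 1.12 in replicate 1 and 1.08 in replicate 2, which is 1.1 ± 0.03 (SD, n = 2) or 2.14-fold. The 6 other genes that donate electrons to ubiquinone were far below complex I in both hearts, with medians of 7.85 and 8.26 TPM, and the highest, the electron transfer flavoprotein dehydrogenase Etfdh, had 154 ± 8.10 TPM. The medians of complexes I and II were below those of complexes III, IV and V in both hearts.

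**Figure D3:**
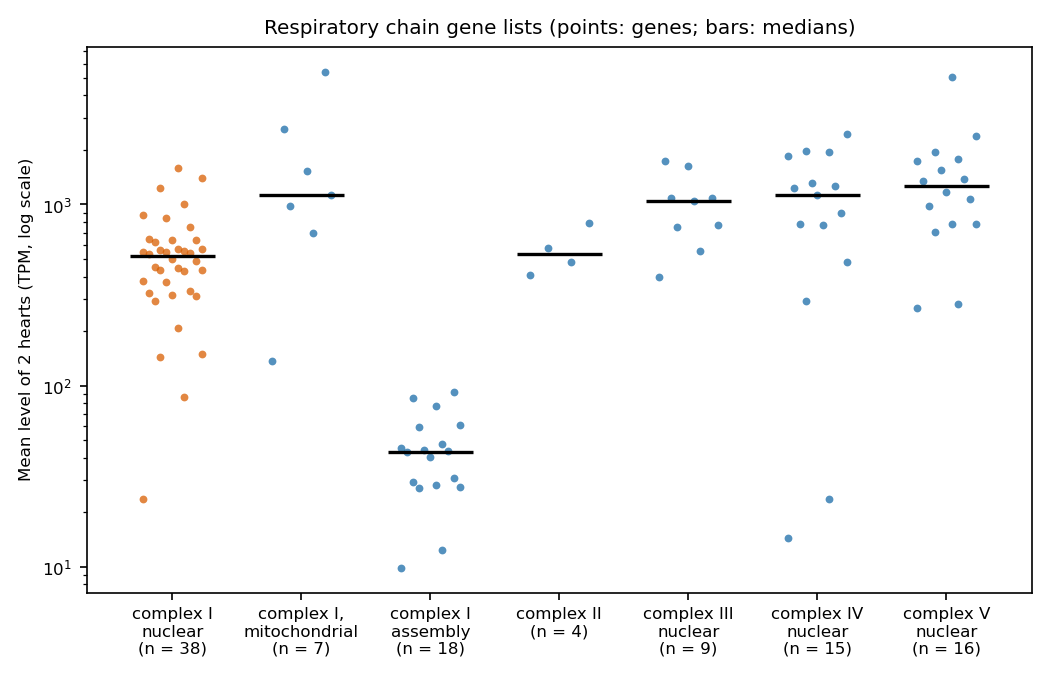
Mean level of each gene in TPM (log axis) for the nuclear complex I subunits and 6 other lists of respiratory chain genes; each point is a gene, and bars are list medians. The complex I bar lies at 517 TPM beside that of complex II, below those of complexes III to V and above that of the assembly factors at 43.2 TPM.

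Levels in the set went with transcript length. Across the 38 genes, mean TPM and the length in the deposited tables had a rho of -0.77, against -0.33 across 1261 protein-coding genes of at least 100 TPM. The genes share libraries, and TPM itself divides by an effective length that was 99 nt under the full length, so short genes gain most from it. With full length in the place of effective length, rho was -0.72, and mean counts against length had a rho of 0.34. With Ndufa4l2 and Ndufb4 left out, the highest gene was 11.03-fold above the lowest in TPM and 4.92-fold in counts. Ndufs1, the longest of the core, was first of the 38 in mean counts and had rank 32 in TPM, whereas Ndufa1, with 419 nt, had rank 30 in counts and rank 7 in TPM. With the M21 lengths of the same transcripts, rho was -0.74.

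**Figure D4:**
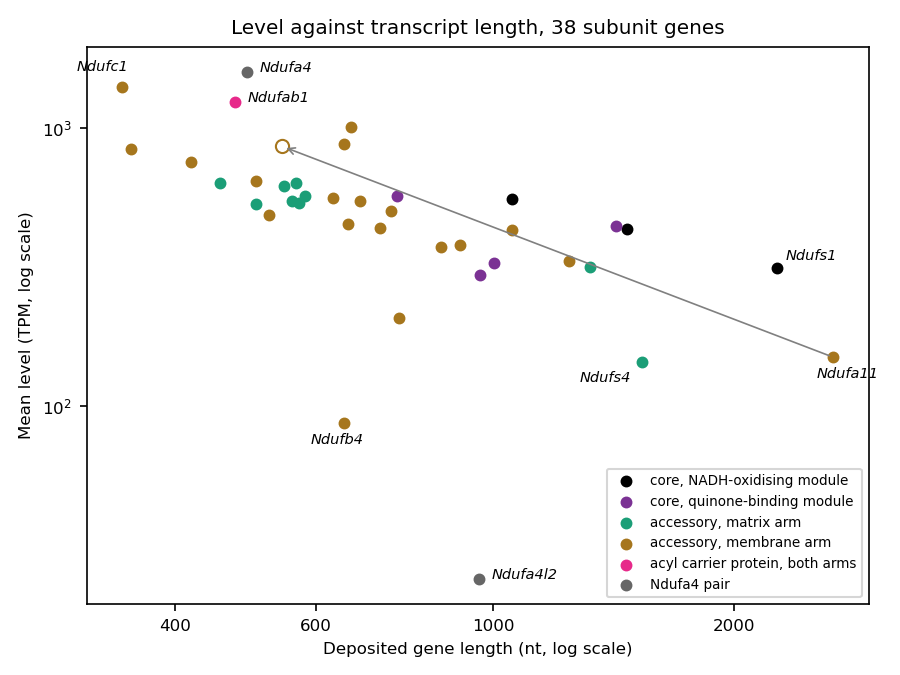
Mean TPM against the deposited gene length in nt (both axes log) for the 38 genes, coloured by role; the arrow leads from Ndufa11 as deposited (2661 nt) to the open circle, its value with the 545 nt of GENCODE M21. Shorter genes lie higher, with Ndufb4 and Ndufa4l2 far below genes of like length.

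The value of Ndufa11, a membrane-arm subunit, rested on the length of a single transcript model. The deposited tables give Ndufa11-201 a length of 2661 nt, and GENCODE M21 gives the same transcript 545 nt. It had 7943 and 8132 counts, rank 11 of the 38 genes in counts and rank 35 in TPM. With the shorter length and the same counts, Ndufa11 would stand at 851 and 867 TPM (859 ± 11.1, rank 6), 5.74-fold above the deposited values. Of the 38 genes, 12 had a leading transcript whose length differs between the deposited tables and M21, and with M21 lengths for all transcripts 2 genes moved by over 1.5 times. The other was Ndufa3, whose leading transcript has 349 nt in the tables and 515 nt in M21: it would stand at 506 and 539 TPM, rank 18 in place of rank 6. The median of the 38 genes would then be 489 and 536 TPM in the hearts. Which length the RNA in these hearts had was not tested.

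The low level of Ndufb4 went with a near-identical copy. Ndufb4 lies at chr16:37647170-37654453 (mm10), and the processed pseudogene Ndufb4c at chr15:73809507-73809896. Of 366 runs of 25 bases in the 390 nt of Ndufb4c, 366 also occur in Ndufb4, where they make up 38.6% of the runs of Ndufb4-201. Ndufb4 was given 1030 and 982 counts and Ndufb4c 3110 and 3272, so the pseudogene row stood at 511 and 535 TPM, a log2 ratio over Ndufb4 of 2.52 in replicate 1 and 2.66 in replicate 2. The deposited posterior SD of the count was 22.7 and 22.2 reads, equal for both rows. Reads of the shared stretch cannot be told apart by sequence, so the level of Ndufb4 is uncertain. The sum of both rows was 600 and 619 TPM (609 ± 13.7), between the quartiles of the 38 genes. This sum scales each row's counts by that row's own length, 390 nt for Ndufb4c and 651 nt for Ndufb4. At the longer length the counts of Ndufb4c would give a lower level, so the place of the sum depends on the length used. The log2 difference of the summed counts between the hearts was -0.02.

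Shared letters were counted for the other subunits in the same way. More than 20% of the 25-base runs of the examined transcript were found in another gene's GENCODE M21 transcripts for 14 of the 38 genes, and 6 genes (Ndufa8, Ndufb10, Ndufs7, Ndufs8, Ndufv1 and Ndufv3) shared none. For Ndufb2, Ndufb9 and Ndufc1, the gene of M21 that shared most was not among the deposited gene rows. Ndufab1 shared most, 84.1%, with its pseudogenes, of which Gm4459 held 915 and 714 counts beside 9639 and 9887 for Ndufab1. Of 11 rows that shared more than 20% with a subunit, 3 had at least 100 counts in both libraries: Ndufb4c, Gm4459 and Smim27, a protein-coding gene that shares letters with Ndufb6. The deposited posterior SD was 0 in both libraries for 24 of the 38 genes and under 1 read for 28, which means that the deposited estimate put little or no spread on those counts. The posterior SD was largest in Ndufab1, at 77.55 and 79.44 reads in replicates 1 and 2.

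Transcript tables of the same libraries split the 38 genes into 155 transcript models. A single model was listed for 14 genes and several for 24, and in 24 of these 24 the same model led in both hearts. The median share of the leading model over these genes was 91.5% of the gene's TPM, and 13 had a leader of at least 90%. In Ndufv3, which has a short and a long protein form, the 485-nt model Ndufv3-202 had 93.4% in replicate 1 and 93.9% in replicate 2. In Ndufv1 the leading model Ndufv1-201 had only 41.2% and 39.8%.

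In most subunit genes the RNA was assigned to models typed as protein coding, which held at least 90% of TPM in 29 of 38 genes. These 29 include the 14 genes with a single listed model, which was typed as protein coding, so their share was fixed beforehand. In 6 of the 24 genes with several models, coding models held under 80%. Ndufa5 had the least, with 7.40% in both hearts, since Ndufa5-204, typed as a processed transcript without a coding frame, had 92.3% and 92.6%. In Ndufa10 coding models had 17.6% and 16.6%, with the retained-intron model Ndufa10-204 leading at 35.9% and 33.9%. In Ndufb4 they had 36.9% and 36.7%, with the retained-intron model Ndufb4-202 at 63.1% and 63.3%, in a gene whose reads are also shared with the pseudogene. Also under this limit were Ndufab1 (46.3% and 47.3%) and Ndufc1 (51.9% and 50.3%). These shares were alike in both hearts within 2 percentage points.

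**Figure D5:**
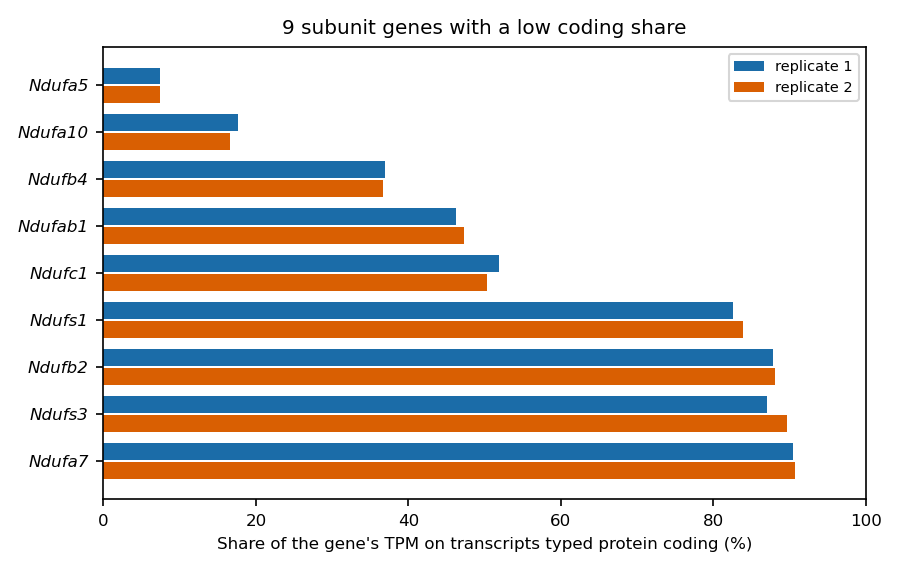
Share of a gene's TPM on transcript models typed as protein coding, in percent, for 9 subunit genes with low shares; bars are replicate 1 and replicate 2. Ndufa5 lies lowest at 7.40% in both, and the bars of a gene are nearly equal.

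Shares of this kind rest on how reads were divided between overlapping models. By estimated counts instead of TPM, coding models had 34.3% in Ndufa10 and 58.1% in Ndufb4, where Ndufb4-201 then led, but still 7.94% in Ndufa5. The leader was the same by counts and by TPM in 21 of the 24 genes. Summed over coding models alone, the median subunit stood at 463 and 506 TPM in the hearts, and Ndufa5 had rank 36 of the 38 genes in place of rank 9. Ndufc1 had rank 6 in place of rank 2, Ndufab1 rank 9 in place of rank 3, and Ndufa10 rank 35 in place of rank 26. On coding models 34 of the 38 genes reached 100 TPM in both libraries, and the share over all genes on coding models was not computed.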

How the data were processed

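RNA of 2 E14.5 hearts was analysed, 1 library each and 1 group. The genome was mm10 with GENCODE M4, per the file headers of the deposited text that goes with each library; the aligner, the quantification tool and the use of strand were not given in the sources used here. The deposited tables hold expected counts (estimated counts per gene and transcript, not scaled by depth), TPM, which the authors scaled to a sum of 1000000, and FPKM, which the authors also computed and which served as an alternative. The deposited transcript tables also give the percent of a gene's TPM per transcript, and posterior SDs of counts. Gene names, types and positions came from GENCODE M21 (GRCm38), matched on the identifier without its version, and promoters from RefSeq on GRCm38.p6.

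The tables had 69691 rows, 96 of them spike-ins. Levels are mean TPM ± SD over 2 libraries. A list's median was taken over the mean TPM of its genes, and its SD over the median in each library. Differences used expected counts with TMM factors (edgeR 4.0.16, R 4.3.3; counts rounded for the scaling), a prior of 0.5 and a mean count of at least 100; DESeq2 1.42.0 size factors were an alternative. Exact Clopper-Pearson 95% intervals and Wilson intervals cover counting error only, since reads are not independent molecules. With 1 library per embryo no p-value was computed, and a log2 size of 0.32 stands in for a call. The calculation of differences was tested on simulated data. Of the 38 subunit genes, 1 enters the counts and medians and its own values are not reported here; of other lists the highest and lowest member are, and marker genes and genes sharing letters were named after their values were seen. The members and lists were chosen with earlier results of these data known; 155 of 157 listed genes were matched. Alternatives covered unit, length, scaling, filters, fold, transcript type and each library left out.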

Additional observations from a re-analysis of the deposited data

How the results depend on the processing

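The median subunit level of 517 TPM was 377 in FPKM, 632 with TPM rescaled without haemoglobin and mitochondrially encoded genes, 487 with full in place of effective length and 484 on coding models alone, and ranged from 499 to 524 with either library left out. Reaching 100 TPM in both libraries held for 36 genes, against 9.45% of the 13635 genes detected at 1 TPM or more in both. It held for 37 at 50 TPM, for 34 at 200 TPM and for 34 on coding models alone. For these last 3 settings the share over all genes was not computed. The median log2 difference between the hearts of -0.01 was 0.11 with the spike-in total. No gene was past the fold threshold of 0.32 in log2, or 1.5-fold, and 3 were past 1.1-fold (Ndufa4l2, Ndufa8 and Ndufs1), where 35.9% of all genes were. The log2 ratio of complexes III to V over complex I was 1.1 by medians, 0.98 by geometric means and between 1.08 and 1.12 with either library left out. The median share of the leading transcript of 91.5% was between 91.3% and 91.4% in single libraries. Full-length scaling and coding models, the ratio of TPM values, M21 transcript lengths and leaving out Ndufb4 were chosen after the data were seen. Depth limits Ndufa4l2 most, at 457 and 402 counts. No paired analysis was possible because the series has 1 group.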
